A study of Oryza sativa Japonica Group with 12 samples.

Results

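Plastid sigma factors and virescent genes are nuclear genes that act in building the chloroplast, and 8 of them were followed here in rice leaf: the sigma factors SIG1 (Os08g0163400), SIG2A (Os11g0448400), SIG2B (Os03g0271100), SIG5 (Os05g0586600) and SIG6 (Os08g0242800), and the virescent genes V1 (Os03g0656900), V2 (Os03g0320900) and V3 (Os06g0168600). They were chosen by locus ID, and all 8 were present among the 38978 rows of the count table and abundant enough to test. The sources used here print no name beside these IDs, so the names are those of the list from which the genes were taken. Leaves of field-grown rice of the japonica cultivar Nipponbare were collected in mid-morning, and RNA was counted in 12 libraries, 4 from each of 3 groups. The WT group is the cultivar without a transgene. The groups Line7 and Line8 are homozygous for p35s-Ami-YGL1, an artificial microRNA under the 35S promoter, which is active in most plant cells. Its target YGL1 encodes chlorophyll synthase, which attaches the phytol tail in the making of chlorophyll. No group carried an empty construct, each line stands for a single transgenic line, and the labels do not say whether replicates were separate plants. The p-values therefore measure the spread between these libraries, which may be partly technical.

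Chloroplast genes are read by a polymerase whose core subunits are encoded in the plastid itself, and nuclear sigma factors lend that core its promoter specificity. Different sigma factors favour different plastid promoters, so the mix of sigma factors bears on which plastid genes are transcribed. Virescent rice mutants have young leaves that are short of chlorophyll and green later, because plastid gene expression or plastid DNA synthesis starts poorly. In rice, V1 encodes NUS1, an RNA-binding protein of the plastid that is made early in leaf development, V2 a guanylate kinase of plastids and mitochondria that supplies guanine nucleotides, and V3 the large subunit of ribonucleotide reductase, which makes the building blocks of DNA.

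Library totals ran from 14746933 to 19822636 counts, and 20217 rows were abundant enough to test. The row taken as that of the target gene, Os05g0349700, was at 44.2 to 69.1 CPM (counts scaled to a common library total) in WT and at 23.8 to 33.4 CPM in Line8. In Line7 it was at 27.4 to 34.4 CPM in 3 libraries, whereas the library labelled Line7 replicate 2 held 68.1 CPM, inside the WT range. It fell by 1.03 on the log2 scale in Line8 (SE 0.278, edgeR adjusted p = 0.0172, and 0.0532 without WT replicate 4). In Line7 its log2 fold change was -0.47 (edgeR adjusted p = 0.291), and -0.87 without replicate 2 (0.00592). That library also lay with WT on the first principal component of all tested rows, at -62.3 against -69.9 to -52.6 in WT and 22.7 to 44.3 in the other Line7 libraries. Of the 8 genes, 5 were inside the WT range in that library, and 1 (SIG1) was inside the range of the other Line7 libraries. Fold changes in Line7 are therefore given with and without it. Because it was singled out by its values, those of the 8 genes included, leaving it out favours a difference from WT. P-values without it describe the remaining libraries and are not independent evidence. Nuclear leaf markers carry no name in the files and were not checked.

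Most of the sigma factors, and V1, differed between Line8 and WT. In Line8, V1, SIG2A, SIG2B and SIG6 rose and SIG5 fell, so that 5 of the 8 genes were called (edgeR quasi-likelihood test, Benjamini-Hochberg adjusted p below 0.05 over all tested rows). Over all rows 27.3% were called in that comparison, with 15.5% higher and 11.8% lower. In Line7, V1, SIG2A and SIG2B rose and 0 of the 8 fell, against 6.97% of all rows called, 5.92% higher and 1.05% lower. Without the library labelled Line7 replicate 2, 4 genes rose and 1 fell in Line7, the same 5 genes and directions as in Line8, and 25.2% of all rows were called. For the mean of both lines the calls were again those 5 genes, 4 higher and 1 lower, against 24.3% of all rows, of which 14.2% were higher and 10.1% lower. The median log2 fold change of the 8 genes was 1.17 in Line8 and 0.69 in Line7, beside -0.07 and -0.01 over all tested rows. Without replicate 2 the Line7 median was 0.93, beside -0.03 over all rows. All WT libraries entered both comparisons with WT, so the results of the 2 lines are not independent of each other. Every value comes from whole leaf tissue, in which fewer cells of a type and less RNA per cell cannot be told apart.

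**Figure D1:**
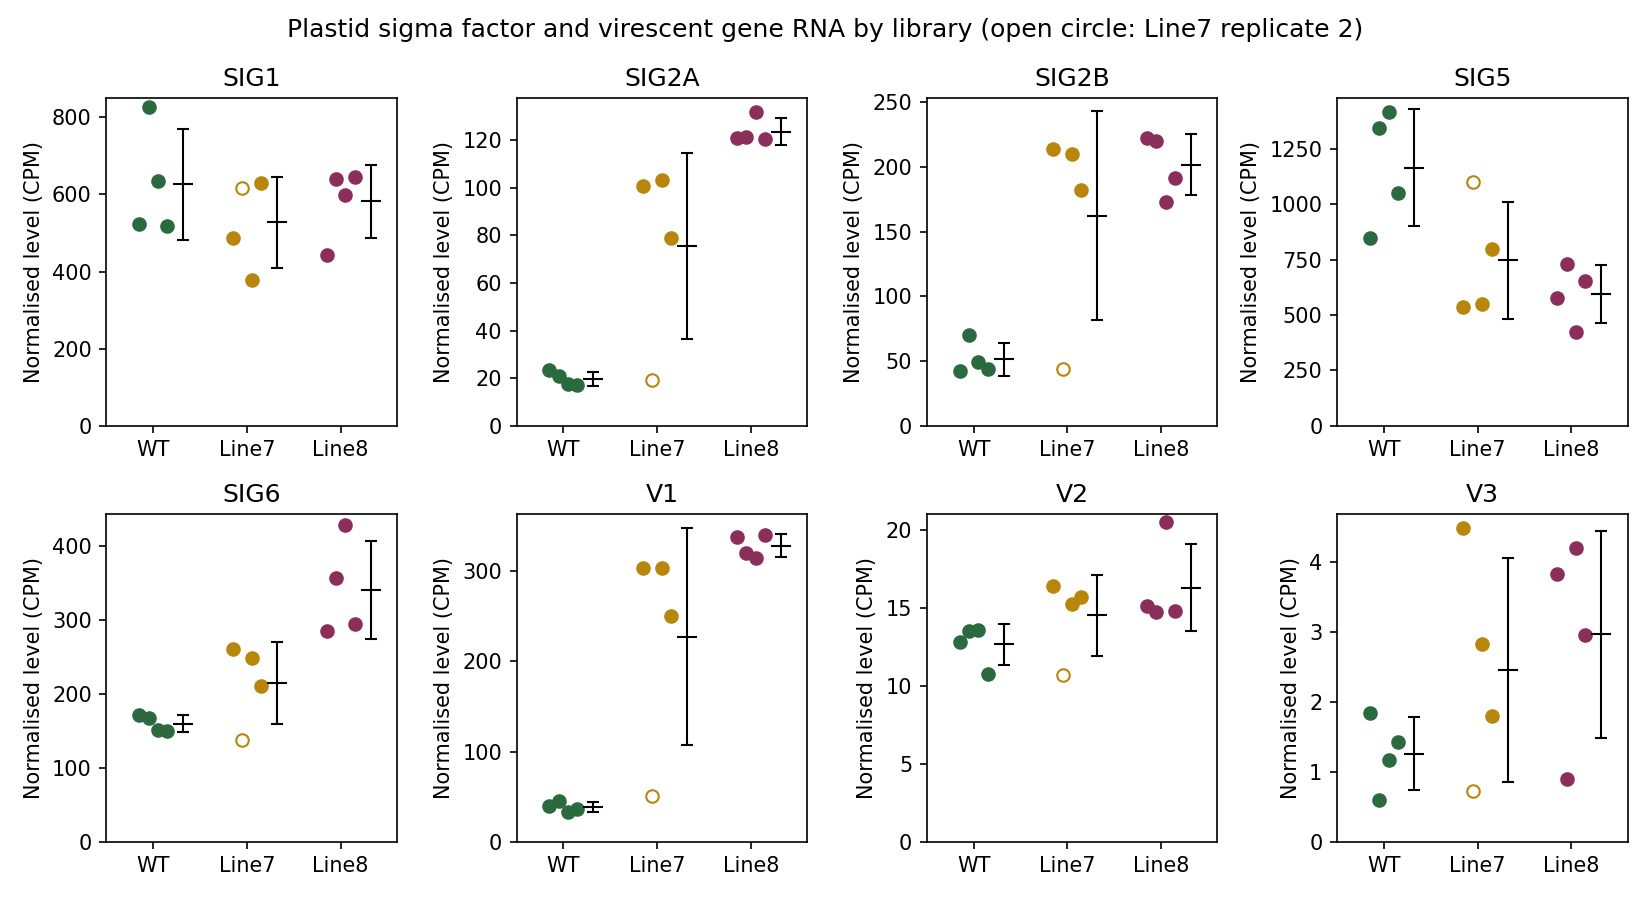
Normalised level (CPM, linear axis from 0) of the 8 genes in each of the 12 libraries. Points are libraries, the open circle is Line7 replicate 2, and the bar beside each group is the mean with its SD (n = 4). For V1, SIG2A and SIG2B all Line8 libraries and 3 of 4 Line7 libraries stand far above WT, whereas for SIG5 they stand below it.

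SIG2A and SIG2B are a duplicated pair of genes in grasses. Their counterpart in Arabidopsis, SIG2, is known for transcribing plastid transfer RNA genes, among them that for glutamate, the starting material of chlorophyll synthesis. SIG2A was at 23.2, 21.1, 17.3 and 17.2 CPM in WT replicates 1 to 4. In Line8 it was at 121, 121, 132 and 120 CPM, and in Line7 replicates 1, 3 and 4 at 101, 103 and 78.7 CPM. The library labelled Line7 replicate 2 held 19.2 CPM. Every Line8 library thus lay above every WT library, by a wide gap, and the same held for 3 of the Line7 libraries while the other one lay among WT. The mean rose from 19.7 ± 2.94 CPM in WT to 124 ± 5.57 CPM in Line8 (SD, n = 4 each), a log2 fold change of 2.65 (SE 0.388, edgeR adjusted p = 0.00187). In Line7 the mean was 75.4 ± 39.1 CPM (SD, n = 4; log2 fold change 1.94, SE 0.379, edgeR adjusted p = 0.0171). Without replicate 2 the Line7 change was 2.25 on the log2 scale (SE 0.154, edgeR adjusted p = 1.95e-06).

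SIG2B was at 42.3, 69.9, 49.2 and 43.5 CPM in WT replicates 1 to 4 and at 222, 220, 173 and 192 CPM in Line8. Line7 replicates 1, 3 and 4 held 214, 210 and 182 CPM, and the library labelled Line7 replicate 2 held 43.4 CPM. As with its duplicate, Line8 and 3 Line7 libraries lay above every WT library and 1 Line7 library lay among them. The log2 fold change of SIG2B was 1.98 in Line8 (SE 0.385, edgeR adjusted p = 0.00409) and 1.67 in Line7 (SE 0.381, edgeR adjusted p = 0.0259). Without replicate 2 the Line7 value was 1.98 (SE 0.189, edgeR adjusted p = 1.71e-05), the same as in Line8 to the precision printed. The Line8 value in that fit was also 1.98 (SE 0.180, edgeR adjusted p = 6.74e-06). How reads shared by similar copies were assigned is not given in the sources used here, so the division of counts between SIG2A and SIG2B is less certain than their joint rise.

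SIG5 is the sigma factor best known, from Arabidopsis, for responding to blue light, stress and the circadian clock and for driving a light-dependent promoter of psbD, the gene of a photosystem II core protein. It moved the other way. WT replicates 1 to 4 held 849, 1346, 1419 and 1049 CPM, and the Line8 libraries 575, 732, 425 and 655 CPM. Line7 replicates 1, 3 and 4 were at 536, 552 and 800 CPM, and the library labelled Line7 replicate 2 was at 1102 CPM. Line8 lay below every WT library, and so did 3 Line7 libraries, although the highest of these was close to the lowest WT library. The mean level was 1166 ± 265 CPM in WT and 597 ± 131 CPM in Line8 (SD, n = 4 each), and it fell by 0.97 on the log2 scale (SE 0.272, edgeR adjusted p = 0.0202). In Line7 the log2 fold change was -0.64 (SE 0.27, edgeR adjusted p = 0.15), which did not pass the threshold, and without replicate 2 it was -0.89 (SE 0.253, edgeR adjusted p = 0.0225). Over the 21 alternatives the Line7 adjusted p was 0.0225 to 0.392. The Line8 call was lost without WT replicate 2 (edgeR adjusted p = 0.0608), WT replicate 3 (0.0742), Line8 replicate 1 (0.0526) or Line8 replicate 3 (0.0549), with log2 fold changes of -0.90 to -0.79 in these fits.

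SIG6 is known in Arabidopsis for a broad part in plastid transcription during seedling greening. Its WT libraries were close together, at 171, 168, 152 and 149 CPM. Line8 replicates 1 to 4 held 285, 357, 429 and 295 CPM, and Line7 replicates 1, 3 and 4 held 261, 249 and 211 CPM. The library labelled Line7 replicate 2, at 138 CPM, was below every WT library. Mean levels were 160 ± 11.2 CPM in WT and 341 ± 66.4 CPM in Line8 (SD, n = 4 each). Line8 was thus free of overlap with WT, and SIG6 rose there by 1.09 on the log2 scale (SE 0.211, edgeR adjusted p = 0.00394). In Line7 the log2 fold change was 0.42 (SE 0.209, edgeR adjusted p = 0.214), and 0.58 without replicate 2 (SE 0.17, edgeR adjusted p = 0.0254, range over the 21 alternatives 0.0254 to 0.451).

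SIG1 transcribes, among others, the photosystem I operon psaA in rice. It differed from the other sigma factors in that it was not called in any comparison or under any alternative. Its libraries held 519 to 828 CPM in WT, 378 to 630 CPM in Line7 and 444 to 645 CPM in Line8, so that all 3 groups overlapped. The log2 fold change was -0.10 in Line8 (SE 0.222, 95% interval -0.58 to 0.38, edgeR adjusted p = 0.751) and -0.25 in Line7 (SE 0.222, 95% interval -0.73 to 0.23, edgeR adjusted p = 0.505). Without replicate 2 the Line7 value was -0.33 (SE 0.234, edgeR adjusted p = 0.329). Both 95% intervals hold falls as well as rises, so they do not show an equal level.

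The make-up of the sigma factor counts shifted accordingly. Within a library such shares do not depend on how libraries are scaled, but they do depend on the unequal transcript lengths of the genes, so they are set against each other only between groups, as a description. SIG5 made up 52.8 to 62.5% of the summed counts of the 5 sigma factors in WT, 33.5 to 42.1% in Line7 replicates 1, 3 and 4, and 24.2 to 35.4% in Line8. SIG2A made up 0.762 to 1.44% in WT and 5.86 to 7.51% in Line8, and SIG2B 2.17 to 2.87% in WT and 9.85 to 13.5% in Line8. SIG6 went from 8.16 ± 1.82% in WT to 18.6 ± 3.95% in Line8 (mean ± SD, n = 4). SIG1 made up 30.9 ± 2.83% of the WT counts, 30.3 ± 3.45% of the Line7 counts and 31.5 ± 3.31% of the Line8 counts. The libraries of WT and Line8 did not overlap in the shares of SIG2A, SIG2B, SIG5 and SIG6, whereas they overlapped in that of SIG1. Their summed level was 1608 to 2433 CPM in WT and 1647 to 2071 CPM in Line8, with 1493 to 1918 CPM in Line7. These ranges overlapped, while the shares of those 4 sigma factors in WT and Line8 did not. The library labelled Line7 replicate 2 had the make-up of WT, with 57.4% SIG5, 1.00% SIG2A and 2.26% SIG2B.

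**Figure D2:**
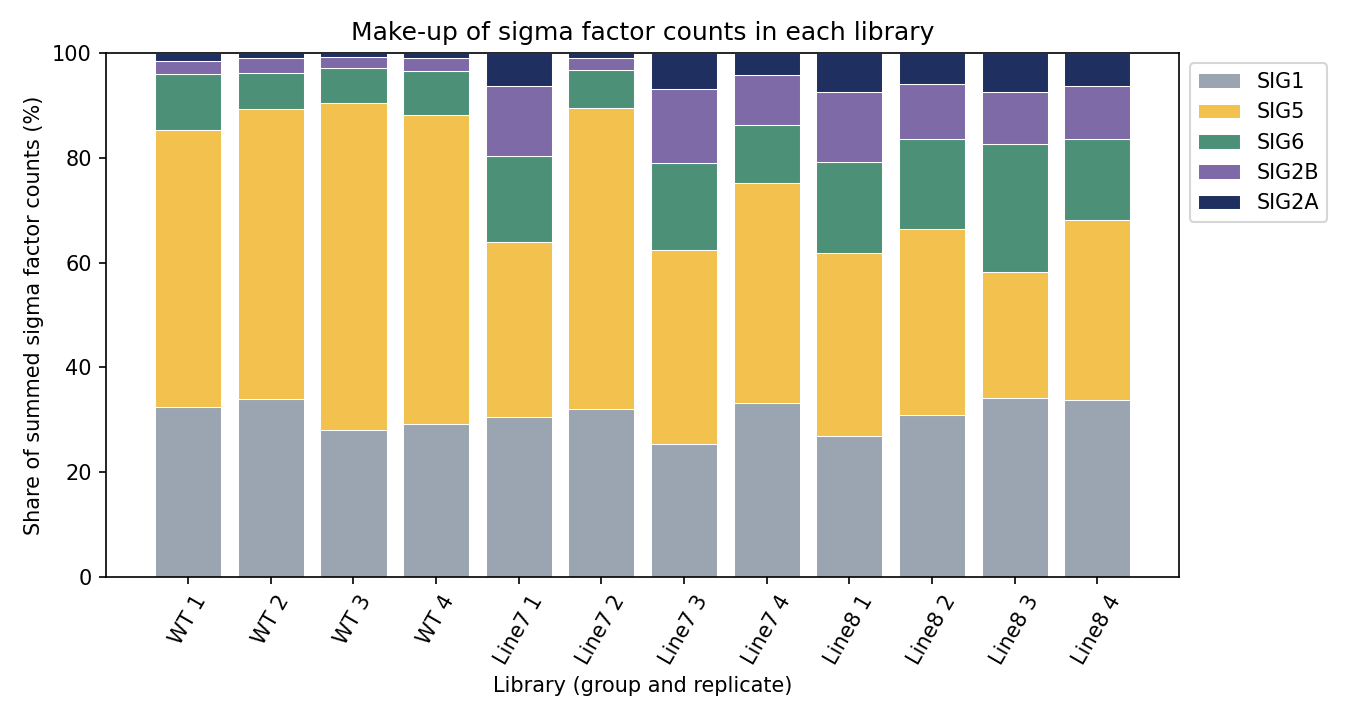
Share (%) of each sigma factor in the summed counts of the 5 sigma factor genes, 1 bar per library. SIG5 is above 50% in WT and in Line7 replicate 2 and at most 42.1% in the other line libraries, while the share of SIG1 stays between 25.4 and 34.1% in all 12.

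V1 showed the largest change of the 8 genes in both lines. It was at 39.8, 45.1, 32.8 and 36.1 CPM in WT replicates 1 to 4 and at 337, 320, 314 and 340 CPM in Line8. Line7 replicates 1, 3 and 4 held 304, 303 and 250 CPM. The library labelled Line7 replicate 2 held 51.1 CPM, close to WT but above its highest library, so V1 was the only one of the 8 genes for which all 8 line libraries lay above every WT library. The means were 38.4 ± 5.27 CPM in WT and 328 ± 12.6 CPM in Line8 (SD, n = 4 each). V1 thus rose 8.53-fold (3.09 on the log2 scale, SE 0.419, edgeR adjusted p = 0.00187). In Line7 the log2 fold change was 2.56 (SE 0.41, edgeR adjusted p = 0.0146), and 2.89 without replicate 2 (SE 0.155, edgeR adjusted p = 1.13e-06). Among all 20217 tested rows, the Line8 change of V1 was the 263rd highest, that of SIG2A the 411th and that of SIG2B the 783rd.

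V2 changed little. Its WT libraries were at 10.8 to 13.6 CPM, its Line8 libraries at 15.1, 14.7, 20.5 and 14.8 CPM, and Line7 replicates 1, 3 and 4 at 16.4, 15.2 and 15.7 CPM. The library labelled Line7 replicate 2 was at 10.7 CPM. Line8 lay above every WT library (exact two-sided permutation test, p = 0.0286, the smallest that 4 against 4 libraries allow), but the gap was narrow. By edgeR the log2 fold change in Line8 was 0.36 (SE 0.182, 95% interval -0.03 to 0.76, unadjusted p = 0.0674, adjusted p = 0.152), and in Line7 it was 0.20 (SE 0.182, adjusted p = 0.52), or 0.32 without replicate 2 (SE 0.168, adjusted p = 0.193). V2 was called in no alternative.

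V3 had the fewest counts of the 8, with 11 to 31 per WT library and 13 to 71 per line library, so its level is the least certain. It was at 1.85, 0.596, 1.17 and 1.43 CPM in WT and at 3.83, 0.898, 4.21 and 2.95 CPM in Line8. In Line7 it was at 4.49, 0.729, 2.83 and 1.80 CPM. Both lines thus overlapped with WT, and in each of the 3 groups replicate 2 was the lowest. The log2 fold change was 1.24 in Line8 (SE 0.566, edgeR unadjusted p = 0.0473, adjusted p = 0.118) and 0.96 in Line7 (SE 0.568, edgeR adjusted p = 0.296). Without replicate 2 the Line7 value was 1.27 (SE 0.517, edgeR adjusted p = 0.092). The Line8 value passed the threshold without Line8 replicate 2 (log2 fold change 1.56, edgeR adjusted p = 0.0475). It also did with the replicate number as a block (1.15, edgeR adjusted p = 0.0297), although replicate numbers showed no clear pairing over all tested rows. Over the 21 alternatives its adjusted p was 0.0297 to 0.236.

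**Figure D3:**
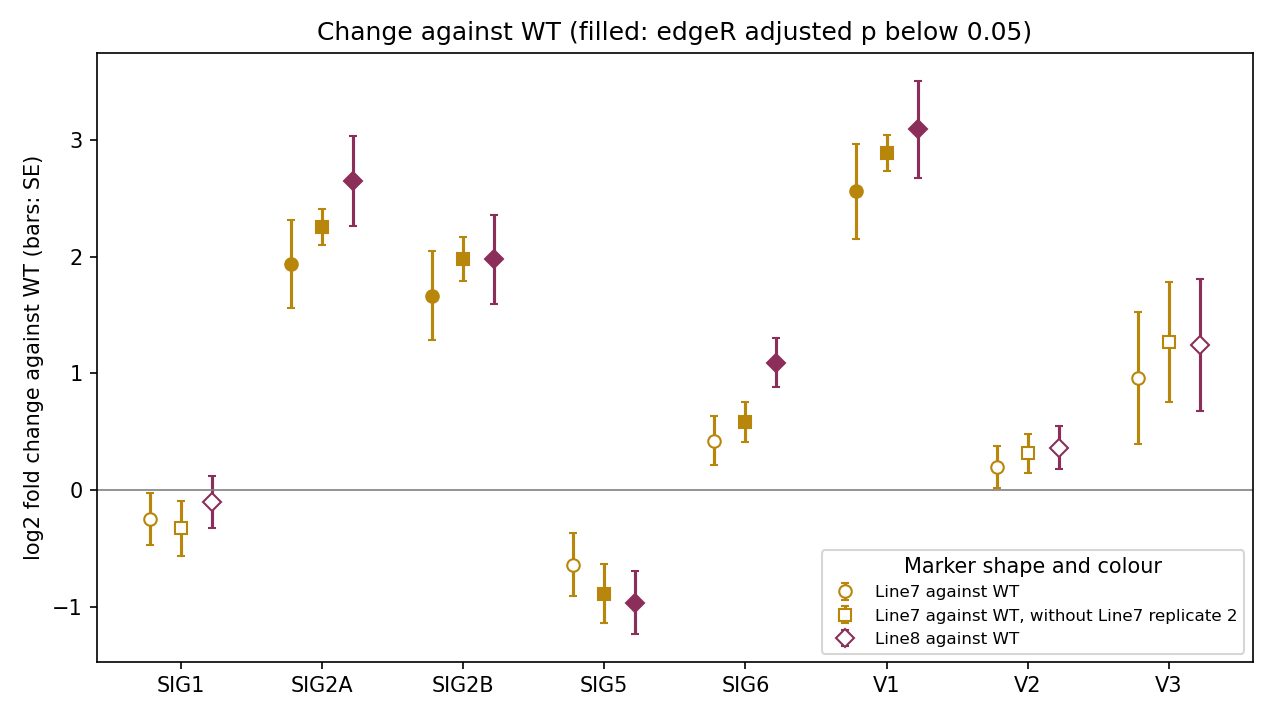
log2 fold change against WT with its SE for each gene, in Line7 (circles), in Line7 without replicate 2 (squares) and in Line8 (diamonds). Filled symbols passed an edgeR adjusted p of 0.05. Circles and diamonds come from the fit of all 12 libraries and squares from the fit without Line7 replicate 2. The SEs of squares and diamonds therefore rest on different estimates of the spread. Leaving out Line7 replicate 2 brings SIG5 and SIG6 past the threshold in Line7, and V1 is highest throughout.

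Libraries of Line8 and WT did not overlap for 6 of the 8 genes, 5 above (SIG2A, SIG2B, SIG6, V1 and V2) and 1 below (SIG5). Over all tested rows 31% did not overlap. The same 6 genes in the same directions did not overlap between WT and Line7 replicates 1, 3 and 4, where 41% of all rows did not. With all 4 Line7 libraries V1 alone, 1 of the 8, was free of overlap, against 11.2% of all rows.

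**Figure D4:**
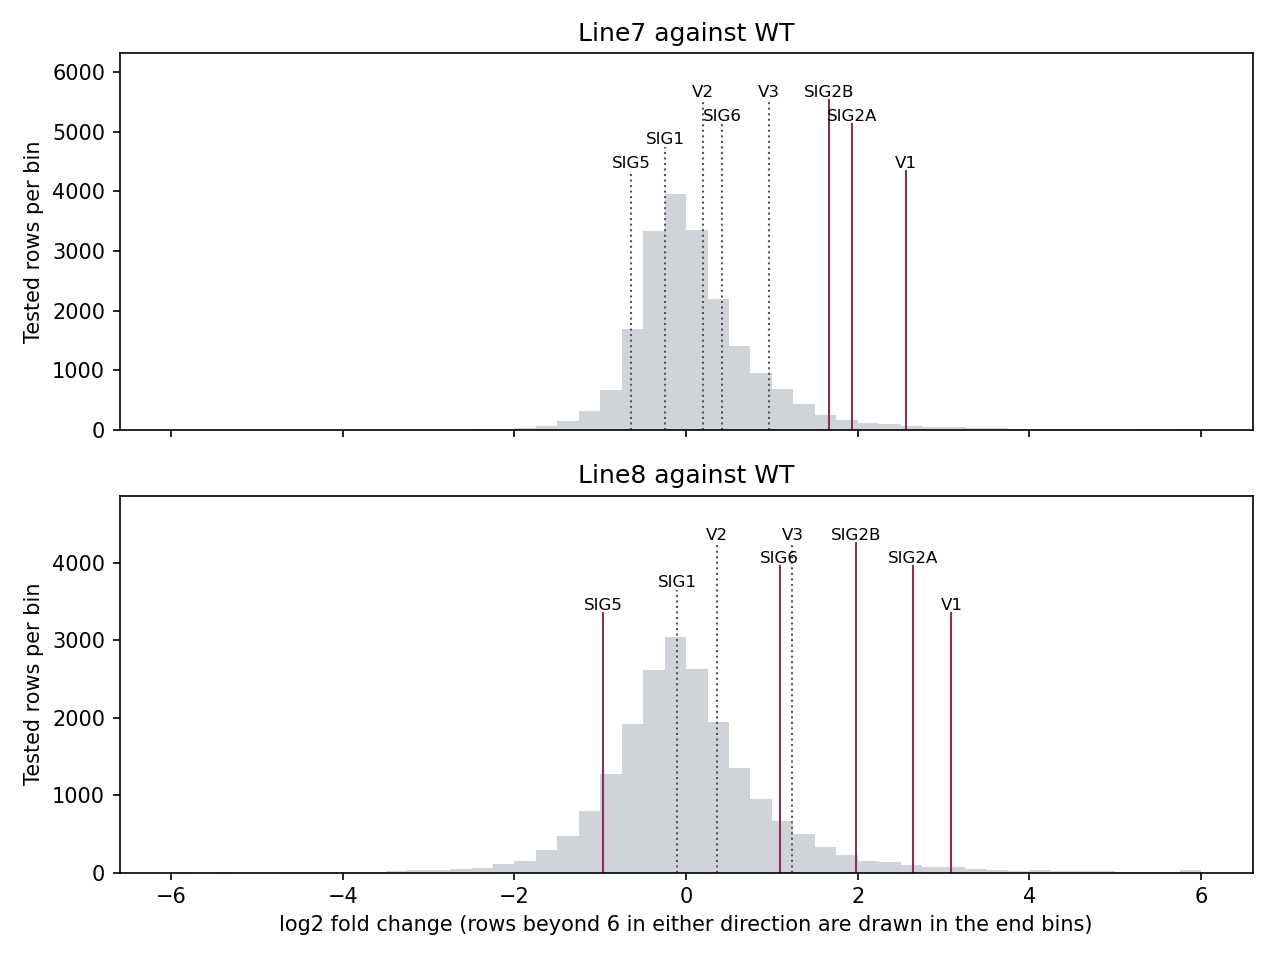
Number of tested rows in each bin of log2 fold change against WT (grey, bins of 0.25), for Line7 (top) and Line8 (bottom), with the position of each of the 8 genes. Solid lines are genes that passed an edgeR adjusted p of 0.05 and dotted lines are genes that did not. V1, SIG2A and SIG2B lie in the upper tail in both lines, and SIG1 lies near the middle.

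The Line7 calls of V1, SIG2A and SIG2B depended on which libraries were used. All 3 were lost without WT replicate 1, 3 or 4 or without Line7 replicate 1 or 3, and the number of called genes was then 0. Their adjusted p-values were 0.0503 to 0.0934 in these edgeR fits. Calls were lost over the whole table in the same fits, with 7 to 18 rows called in all, or 0.0341 to 0.0877% of those tested. limma-voom called 0 of the 8 in Line7 and 0.109% of all rows, whereas DESeq2 called 3 of the 8 and 15% of all rows. SIG2B alone was also lost without Line7 replicate 4 (edgeR adjusted p = 0.0627), in a fit of the compared libraries only (0.0553) and with the replicate number as a block (0.0717). The unadjusted p of V1 was at most 0.000292 over its 21 alternatives, that of SIG2A at most 0.00163 and that of SIG2B at most 0.0047. In exact two-sided permutation tests, Line7 against WT gave p = 0.0286 for V1, 0.0857 for SIG2A and 0.114 for SIG2B. In Line8, V1, SIG2A, SIG2B and SIG6 were called under all 21 alternatives, with edgeR, DESeq2 (33.3% of all rows called) and limma-voom (27%).

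Line8 and Line7 were also compared directly, to ask whether lines with the same construct differ in these genes. None of the 8 was called by edgeR, DESeq2 or limma-voom, while of all rows 0.0247% were called by edgeR, 2.34% by DESeq2 and 0.00989% by limma-voom. SIG6 was 0.67 higher in Line8 on the log2 scale (SE 0.21, 95% interval 0.22 to 1.12, edgeR unadjusted p = 0.00702, adjusted p = 0.221), and it was the only one of the 8 with an unadjusted p below 0.05. The libraries of the lines did not overlap for SIG2A, SIG6 and V1, 3 of the 8, all higher in Line8 (exact two-sided permutation test, p = 0.0286 for each). Of all rows, 9.97% did not overlap. The log2 differences were 0.71 for SIG2A (95% interval -0.08 to 1.50, edgeR adjusted p = 0.343) and 0.53 for V1 (95% interval -0.31 to 1.37, edgeR adjusted p = 0.49). Without Line7 replicate 2 they were 0.39 for SIG2A (edgeR adjusted p = 0.386), 0.51 for SIG6 (0.355) and 0.20 for V1 (0.595). Over the 21 alternatives the lowest adjusted p was 0.263 for SIG2A, 0.0542 for SIG6 and 0.345 for V1. For SIG2B the difference was 0.31 (95% interval -0.49 to 1.11) and for SIG5 -0.32 (95% interval -0.91 to 0.26), intervals that hold differences in both directions.

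Patterns over the 12 libraries were compared by the root mean square difference of log2(CPM + 1), each gene being centred on its own mean. The nearest of the 8 to V1 was SIG2A, at 0.282, and the nearest to SIG2B was also SIG2A, at 0.335. Of all other tested rows, 44 were nearer to V1 than SIG2A was, 102 were nearer to SIG2A than V1 was, and 194 were nearer to SIG2B than SIG2A was. The row nearest to V1 in the whole table was Os02g0121000 (0.103), which went from 16.4 ± 2.8 CPM in WT to 104 ± 57.3 CPM in Line7 and 155 ± 13.4 CPM in Line8 (SD, n = 4). The nearest of the 8 to SIG5 was SIG1, at 0.444, and V3 was farther from its nearest, V2, at 0.474. SIG1 was nearest to V2 (0.383), and SIG6 and V2 were nearest to each other (0.339). In the whole table the row nearest to SIG5 was Os03g0789200 (0.117). Its means were 32.6 ± 7.04 for WT, 23.1 ± 8.81 for Line7 and 17.6 ± 5.79 for Line8, all in CPM (SD, n = 4). Both rows are without a name in the files.

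The genes that sigma factors serve were looked for among the plastid's own genes, as far as the table names them. Listed genes without a row, rbcL and atpB among them, could not be looked at. Genes whose symbol is shared with the mitochondrion, such as rps2, were left out. Of 43 plastid genes for the polymerase core, the photosystems, the cytochrome and ATP synthase complexes, the NADH dehydrogenase and translation, 20 had no count in any library and 35 had fewer than 10 counts in every library. Together they held 413 to 1079 counts per library. Whether messenger RNA was selected by its poly(A) tail, which plastid transcripts mostly lack, is unknown here. These counts are therefore no measure of how much plastid RNA the leaf held. psbD, psaA, psbA and rpoB, the last for a polymerase core subunit, had 0 to 7 counts per library, and psbD had 0 in all. Only psaC, psbB, atpA, rpoA and rps16 were abundant enough to test. In the edgeR fit of all 12 libraries 0 of these 5 were called in any comparison, with 1 at an unadjusted p below 0.05 in Line7 and 1 in Line8. DESeq2 called psaC lower in Line7 and rps16 lower in Line8. With no filter on abundance, edgeR called ndhD, a gene of the NADH dehydrogenase, lower in Line8 (log2 fold change -4.62, adjusted p = 0.0368). It was also called lower in the mean of both lines (-3.03, edgeR adjusted p = 0.0493).

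psaC, for the iron-sulphur protein of photosystem I, had 190 to 587 counts per library. It was at 28.3, 24.3, 26.8 and 22.3 CPM in WT and at 12.7, 15.4, 15.0 and 13.8 CPM in Line7. In Line8 replicates 1, 2 and 4 it was at 11.4, 17.8 and 14.2 CPM, and in replicate 3 at 34.8 CPM. Here the library labelled Line7 replicate 2 lay with the rest of its line and not with WT, while Line8 replicate 3 stood above all. The log2 fold change was -0.84 in Line7 (edgeR adjusted p = 0.0836, 0.0426 in DESeq2, and 0.0582 in edgeR without Line7 replicate 2 at -0.88) and -0.38 in Line8 (edgeR adjusted p = 0.323). Without Line8 replicate 3 edgeR gave -0.82 in Line7 (adjusted p = 0.0176) and -0.77 in Line8 (adjusted p = 0.0101). psbB, for a core antenna protein of photosystem II, was at 6.02 to 10.01 CPM in WT. It was at 14.8 to 18.5 CPM in Line7 replicates 1, 3 and 4, at 7.46 CPM in the library labelled Line7 replicate 2 and at 5.60 to 20.6 CPM in Line8, and was called in neither line (edgeR adjusted p = 0.214 and 0.212, and 0.068 in Line7 without replicate 2). rpoA, a polymerase core subunit, was at 0.685 to 2.15 CPM in WT, 0.561 to 1.67 CPM in Line7 and 0.770 to 2.63 CPM in Line8 (edgeR adjusted p = 0.979 and 0.618, and 0.728 in Line7 without replicate 2).

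rps16, for a protein of the small plastid ribosomal subunit, had only 8 to 33 counts per library. It was at 1.97, 1.73, 1.84 and 1.43 CPM in WT and at 0.478, 0.691, 1.48 and 0.542 CPM in Line8. Again Line8 replicate 3 stood apart from its group, here inside the WT range. The log2 fold change in Line8 was -1.12 (SE 0.414, edgeR unadjusted p = 0.018, adjusted p = 0.0608). It passed the threshold with DESeq2 (adjusted p = 0.036), limma-voom (0.0399), upper-quartile scaling in edgeR (0.0401) and without Line8 replicate 3 (edgeR, -1.56, 0.014). In Line7 the log2 fold change was -0.27 (edgeR adjusted p = 0.702), or -0.11 without replicate 2 (0.872). atpA, for a subunit of the ATP synthase, was at 0.685 to 1.47 CPM in WT and at 2.63, 0.691, 4.15 and 1.93 CPM in Line8, where replicate 2 alone was inside the WT range. Its log2 fold change in Line8 was 1.01 (SE 0.47, edgeR adjusted p = 0.125), and 1.33 without Line8 replicate 2 (edgeR adjusted p = 0.0306). In Line7 it was 0.33 (edgeR adjusted p = 0.691), or 0.48 without replicate 2 (0.527).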

How the data were processed

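RNA of rice leaf, taken up in Trizol per the labels' protocols, gave 12 libraries. For these the authors deposited whole-number counts per annotated gene, 1 column per library. The sources used here give no aligner, counter, genome build, strand setting or RNA selection, so antisense or overlapping reads cannot be told apart. Groups and replicate numbers came from the sample titles.

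Rows were kept by edgeR's filterByExpr (20217 of 38978) and scaled by TMM, and a robust quasi-likelihood model (edgeR 4.0.16, R 4.3.3) with 1 coefficient per group was fitted over the 12 libraries together. P-values were adjusted by Benjamini-Hochberg over all tested rows, with a threshold of 0.05. SEs and 95% intervals were derived from each fold change and its F value. CPM use TMM-scaled totals. Single genes were also compared by exact permutation of log2(CPM + 1). The script was tested on simulated data. Alternatives were other size factors, 2 filters, DESeq2 1.42.0, limma-voom (limma 3.58.1), the compared libraries only, a replicate block and leaving out each library. Over 66 pairs of libraries, the chi-square of the counts over its degrees of freedom was 14.7 to 247, so no pair differed by counting noise alone. This does not show whether libraries came from separate plants.

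The 8 genes, the plastid lists and the named genes (the 8, the nearest rows to SIG5 and V1, tested plastid genes, 4 plastid genes and the target) were chosen with earlier results of these data known. Nuclear partner genes had no name in the tables used and were not tested.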

Additional observations from a re-analysis of the deposited data

Results flagged for a closer look

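Levels and shares in WT, Line7 and Line8 were screened in 42 sets, each of 4 values from a single group. A set was flagged where the gap of an extreme library to its neighbour exceeded Dixon's 95% critical value. All 3 flagged sets were Line8 sets with Line8 replicate 3 as the extreme library, the gap being 0.910 to 0.928 of the range. Chance gives such a gap in about 1 of 20 sets, but only the Line8 sets, a part of the 42, could flag Line8 replicate 3. The 42 sets are also not independent, since levels and shares come from the same counts. That library held 132 CPM of SIG2A, where the others held 120 to 121 CPM. It held 20.5 CPM of V2, where the others held 14.7 to 15.1 CPM. SIG5 made up 24.2% of its sigma factor counts, against 34.4 to 35.4% in the others. Counts of the 43 plastid genes summed to 1079 in that library and to 413 to 702 in the other 11, and their part in these values was not tested. Without it, SIG2A, SIG2B, SIG6 and V1 were still called in Line8, and SIG5 was not (edgeR adjusted p = 0.0549).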

How the results depend on the processing

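Over the 4 comparisons and 8 genes, 664 fold changes were computed under alternatives. Of these 629 kept their side of the threshold, 29 no longer passed it (21 of them in Line7 against WT), 6 newly passed it, and 0 called values changed sign. In Line7 the number of called genes was 0 with limma-voom (0.109% of all rows called), and 0 to 5 when single libraries were left out, the highest without Line7 replicate 2. For the mean of both lines leaving out single libraries gave 3 to 6, the lowest without WT replicate 3, where SIG5 (edgeR adjusted p = 0.0981) and SIG6 (0.0504) were lost. The SIG5 call for that mean was also lost without WT replicate 2 (0.0753) or Line7 replicate 1 (0.0573). In Line8 the number was 4 to 6. With upper-quartile scaling the all-row median in Line8 shifted by -0.115 (log2) and changed no call of the 8 genes. Replicate numbers showed no clear pairing of the samples over all tested rows. Same-numbered libraries deviated from their group means with correlations of -0.43 to 0.38, and 4 of 12 libraries correlated best with their own number. The check is weak, because each group mean rests on 4 libraries and that of Line7 includes replicate 2. With the replicate number as a block, 2 genes were called in Line7 (2.35% of all rows) and 6 in each of Line8 (23.9%) and the mean of both lines (21.1%), V3 being added (edgeR adjusted p = 0.0297 and 0.0382). Replacing the pseudocount of 1 by 0.1 moved no permutation p across 0.05. The counts of V3 and of the plastid genes limit what can be seen of them.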

Other observations

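Within a library, the ratio of SIG2B to SIG2A counts was 1.82 to 3.31 in WT, 2.04 to 2.31 in Line7 and 1.31 to 1.83 in Line8, so Line8 was below Line7 and overlapped with WT at the edge. The ratio of SIG5 to SIG2B counts was 19.3 to 28.8 in WT, 2.50 to 4.40 in Line7 replicates 1, 3 and 4 and 2.45 to 3.42 in Line8. The library labelled Line7 replicate 2 had 25.4, inside the WT range. The ratio of V1 to SIG2B counts was 0.645 to 0.941 in WT and 1.45 to 1.82 in Line8. In Line7 it was 1.37 to 1.44 in replicates 1, 3 and 4 and 1.18 in the library labelled replicate 2, so for this ratio that library lay between WT and its line. These ratios were chosen after the values were seen and were not tested.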
